A study of Mus musculus with 2 samples.

Results

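The clustered histone genes of the mouse are described here as they appear in poly(A) RNA of embryonic stem (ES) cells before and after differentiation. Members were chosen by name: every row of the authors' deposited gene table whose symbol begins with Hist1h, Hist2h, Hist3h or Hist4h, which gave 74 of 34376 rows. They carry 67 distinct symbols, because 7 symbols stand on 2 rows each, and comprise 6 rows of the linker histone H1, 21 of H2A, 19 of H2B, 13 of H3 and 15 of H4. Of these, 57 rows lie in the large Hist1 cluster on chromosome 13, 12 in Hist2 on chromosome 3, 3 in Hist3 on chromosome 11 and 1 in Hist4 on chromosome 6, while Hist1h2al lies apart on chromosome 13.

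Both libraries came from E14 cells, an ES line of strain 129P2/OlaHsd, at passage 29. The undifferentiated group is 1 culture kept in self-renewal with leukaemia inhibitory factor and 15% serum on mouse embryonic fibroblasts that mitomycin C had stopped from dividing. The differentiated group is 1 culture without that factor, plated on gelatin in 10% serum with 0.1 µM all-trans retinoic acid and harvested after 4.5 days as a mixed cell population. Fibroblasts were removed by adsorption before harvest and before differentiation, with under 0.25% estimated to remain. Dead cells were put at 2% before and 8% after differentiation. Each library was made from 5 µg of total RNA with Illumina's mRNA preparation, which captures poly(A) tails and keeps no strand. Templates of near 250 bp were cut from a gel, and each library filled 2 lanes with single reads of 36 bases.

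Nucleosomes are built from the core histones H2A, H2B, H3 and H4, and H1 binds the DNA between them. Most genes of these clusters are switched on in S phase, when new DNA must be packaged, and their messages mostly end in a conserved stem-loop bound by the protein SLBP in place of a poly(A) tail. A library made by poly(A) capture therefore holds only a minor share of this RNA, and some members are known to give a longer, polyadenylated form when cells leave the cell cycle. The coding sequences within a type are close to identical, so many reads fit several copies.

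Values are in RPKM, reads per kilobase of gene model, scaled to the depth of the lane. The lane constants that make the values whole reads imply a depth of 37.8 M and 36.2 M reads (M, mega) for the undifferentiated lanes and of 33.1 M and 32.0 M for the differentiated ones. Ratios are on the log2 scale with 1 RPKM added to both libraries, positive where the differentiated value is the larger, and understate the change of low genes. Calls of higher or lower were made at 2-fold on this scale, and only for rows that reached 1 RPKM in either library, called the floor here. There is 1 library per group, so no difference has a replicate check and no p-value is given. Lanes repeat the sequencing of a library and say nothing of the spread between cultures. In bulk RNA, fewer cells of a type and less RNA per cell cannot be told apart. The labelled cell states were checked on their markers: all 5 pluripotency markers were at least 2-fold lower after differentiation (summed RPKM 1400 and 46.2) and all 7 extraembryonic endoderm markers higher (36.4 and 3206). Of 9 feeder fibroblast markers at the floor 6 were higher (summed RPKM of all 10 markers 32.6 and 279), among them Col1a1 at 12.3 and 133 RPKM, while Lum was the one below the floor. The other 3 stayed under 2-fold: Thy1 (3.43 and 2.13 RPKM) and Postn (2.69 and 1.63) were lower, and Pdgfrb (1.58 and 2.64) was higher. The part of these cell types in the histone values was not tested.

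A smaller share of the clustered histone genes than of all genes passed 2-fold, and they had no common direction. Of 62 rows at the floor, 5 were at least 2-fold higher after differentiation, which is 8.06% where 19.1% of all 18019 genes at the floor were. Only Hist1h1e was at least 2-fold lower, 1.61% where 8.46% of all genes were, and 56 lay between. The 5 higher rows were Hist1h1c, Hist1h2bc, Hist3h2a and both rows of Hist2h2aa1. The Hist2h2aa1 rows overlap rows of Hist2h2aa2 that did not pass 2-fold, and reads may be divided among them. The median ratio of the 62 rows was -0.08, and that of all genes was 0.12. With the libraries scaled to equal RPKM sums these medians were 0.13 and 0.34. Both differentiated lanes lay above both undifferentiated lanes in 18 of the 62 rows, against 47.4% of all genes, and below them in 27, against 37.1%.

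Type by type the sums went opposite ways. Over the rows at the floor, H2A summed to 913 RPKM before and 622 after differentiation, a ratio of -0.55 (-0.54 and -0.57 in the separate lanes). The sum of H3 was 194 and 126 RPKM, a ratio of -0.62. Linker H1 went the other way, from 16.05 to 25.5 RPKM (0.64), and so did H2B, from 61.2 to 83.7 RPKM (0.45). Hist1h2bc alone held 10.3 and 22.3 RPKM of the H2B sums, which were not recomputed without it. The rise of the H1 sum rested on Hist1h1c, since the other 3 H1 rows summed to 10.2 and 4.46 RPKM (-1.03). Of those 3, Hist1h1e went from 8.67 to 2.53 RPKM and Hist1h1a from 1.07 to 0.742, while Hist1h1d rose from 0.437 to 1.19. H4 summed to 70.5 and 69.6 RPKM, and its ratio of -0.02 took either sign in the separate lanes (-0.14 and 0.10). H2A made up 72.7% of the summed RPKM of all clustered histone genes before and 67.1% after differentiation. Under 4 other scalings of the libraries the ratios of H2A and H3 stayed below 0 and those of H1 and H2B above it, while that of H4 ranged from -0.38 to 0.22.

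**Figure D1:**
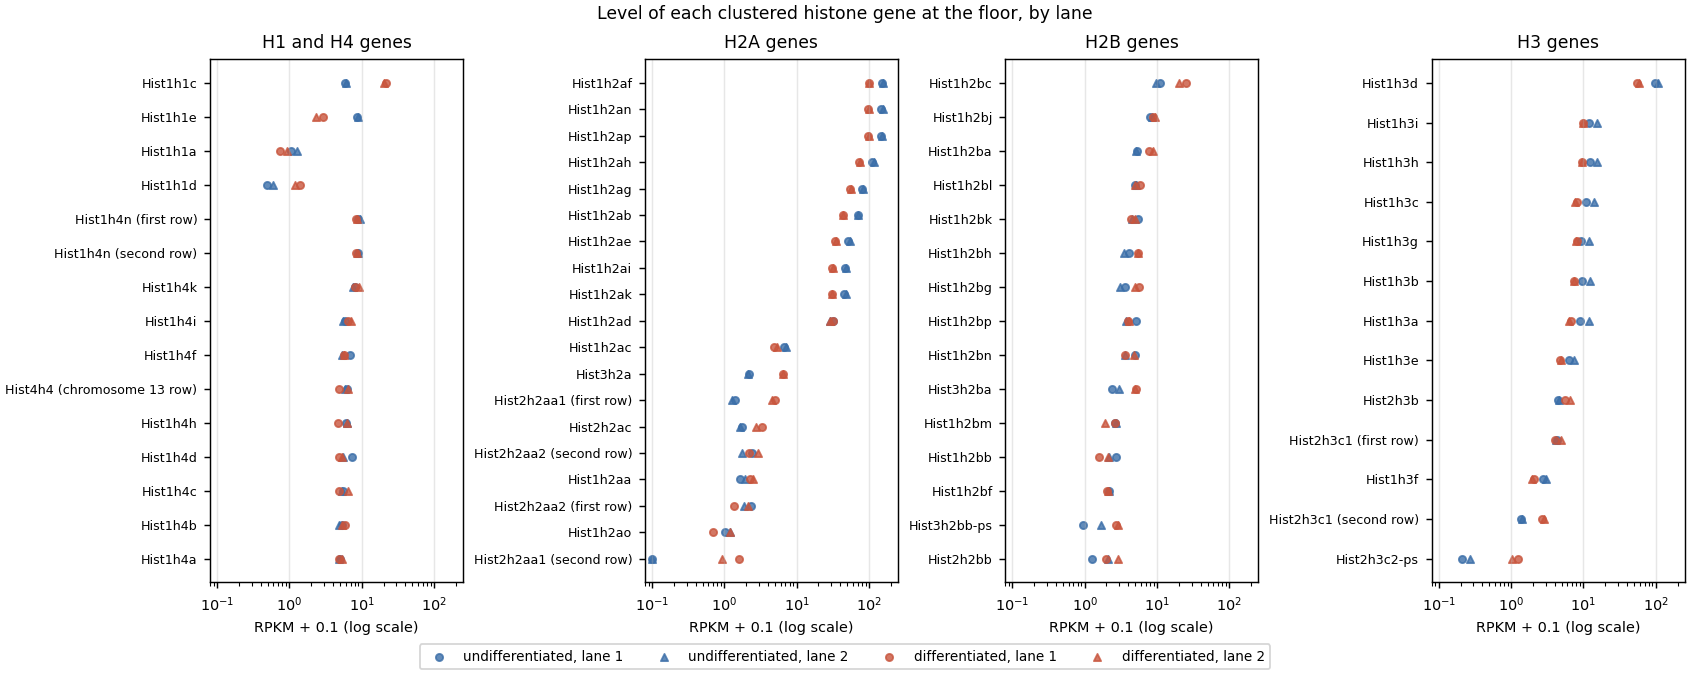
RPKM + 0.1 on a log axis for each of the 62 rows at the floor, in 4 panels by histone type; circles are lane 1 and triangles lane 2 of the undifferentiated (blue) and differentiated (red) library. The 10 highest H2A rows sit at 30 RPKM or more, and within H3 Hist1h3d stands alone at about 100 RPKM before and 57 after differentiation.

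The RNA end that sets these genes apart was found in the reference transcripts. GENCODE M21 holds transcripts for 66 of the 67 symbols, and 1 transcript per symbol was searched. Of these, 44 hold the histone stem-loop consensus on the sense strand, in 8 forms that differ at the base-paired positions and in the loop. Several of the others are short, such as Hist1h2an (393 bases) and Hist1h4k (312), and may end before a stem-loop. A transcript without one therefore does not show that the gene lacks it. One form occurred in 24 transcripts from H1, H2A, H2B and H3, and another in 7 transcripts that were all H4. The stem-loops of members described further on are shown with 5 bases on either side, the stem-loop itself in capitals, to let the stem and its flanks be compared between types.
Hist1h1c: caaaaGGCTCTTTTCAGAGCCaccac
Hist1h1e: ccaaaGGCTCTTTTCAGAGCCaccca
Hist1h2ac: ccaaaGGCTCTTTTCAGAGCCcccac
Hist1h2bb: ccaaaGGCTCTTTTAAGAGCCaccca
Hist1h3d: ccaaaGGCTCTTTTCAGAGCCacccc
Hist1h3g: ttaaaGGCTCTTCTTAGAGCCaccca
Hist1h4h: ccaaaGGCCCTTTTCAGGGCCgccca
Hist4h4: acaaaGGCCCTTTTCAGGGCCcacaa
In 17 of the 44 transcripts the annotated RNA runs on for more than 200 bases after the stem-loop, among them Hist1h1c (840 bases), Hist1h1e (1153), Hist3h2a (1643) and Hist1h3d (752). The annotated transcripts of Hist1h2bc and Hist2h2be hold no stem-loop. Both groups lay near 0. The 13 of these 17 at the floor had a median ratio of 0.06, with 2 higher and 1 lower. The 25 at the floor with a shorter end had a median of -0.13, with 1 higher and none lower. Across the 18019 genes that reached 1 RPKM, 19.1% rose and 8.46% fell by 2-fold or more, around a median ratio of 0.12. The ratios belong to the deposited gene models, some of which are much shorter than the transcript. Hist1h4d has 393 bases against 1138, and Hist1h2bh 436 against 1679. The comparison therefore cannot show how the long ends themselves changed.

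The linker histone genes held both the highest and the lowest ratio. Hist1h1c, which encodes H1.2 (1 exon, mm9 chromosome 13, 23830676 to 23832236), read 5.80 and 5.94 RPKM before and 21.8 and 20.3 after differentiation. The differentiated lanes are both the higher ones, with no overlap, and the ratio was 1.68. Behind these values stood 342, 335, 1127 and 1016 reads, as implied by value, length and lane total. Hist1h1e, which encodes H1.4 (23712497 to 23714427), read 8.57 and 8.77 RPKM before and 2.83 and 2.24 after differentiation, again without overlap, a ratio of -1.45. Its row overlaps that of Hist1h2be, whose model spans 37455 bases, and that of ENSMUSG00000080741. Hist1h2be read 1.05 and 0.939 RPKM before and 0 and 0.0085 after, and ENSMUSG00000080741 went from 2.07 to 0.174 RPKM, so all 3 overlapping rows had lower values. Which of them the reads came from was not tested.

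The other H1 genes were low. Hist1h1d, the H1.3 gene, was at 0.437 RPKM before and 1.19 after (0.61), and Hist1h1a, the H1.1 gene, at 1.07 and 0.742 (-0.25). Hist1h1b, the H1.5 gene, stood at 0.712 and 0.681 RPKM, and Hist1h1t, the testis linker histone, at 0.134 and 0.0679, both below the floor. Outside the clusters H1f0, the replacement linker histone of cells that stop dividing, was higher after differentiation, at 10.5 and 66.7 RPKM (2.55). H1fx, a further linker gene outside the clusters that was named after its value was seen, was at 33.6 and 27.8 RPKM. Among the clustered H1 rows that of Hist1h1e thus had the highest value before differentiation, and that of Hist1h1c after it. The Hist1h1e row carries the overlaps given above.

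Windows of 36 bases, the read length, were compared between transcripts to see how far these values belong to 1 gene. Of the windows of the H1 transcripts, a median of 97.8% occurred in no other clustered histone gene, with 89.5% in Hist1h1c and 66.0% in Hist1h1e. The median was 55.2% for H4, 53.3% for H2B, 41.8% for H3 and 21.1% for H2A. Of the 66 symbols 34 had under 50% of their windows to themselves. The windows held by the most symbols are shown, since any read with this sequence fits each of them.
H2A, in 17 of 18 symbols: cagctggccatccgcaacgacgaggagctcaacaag
H2B, in 16 of 18 symbols: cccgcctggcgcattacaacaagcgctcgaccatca
H3, in 11 of 11 symbols: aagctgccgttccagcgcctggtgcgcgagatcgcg
H4, in 11 of 13 symbols: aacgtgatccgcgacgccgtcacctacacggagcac

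The 4 highest clustered histone rows were H2A copies of Hist1, and Hist1h3d came next. The 10 highest H2A rows stood between 30.3 and 153 RPKM before and between 30.3 and 99.96 after differentiation, with all 10 ratios below 0 (median -0.61; 9 of 10 with equal RPKM sums). In 9 of the 10, all but Hist1h2ad, the undifferentiated lanes lay above the differentiated lanes, where 37.1% of all genes did so. Hist1h2af (23625775 to 23626173) was the highest, at 150 and 157 RPKM before and 99.3 and 101 after (-0.61). Hist1h2an followed at 148 and 154, then 97.4 and 99.1 RPKM (-0.61), and the first row of Hist1h2ap at 144 and 150, then 96.2 and 98.7 (-0.59). These 3 genes encode core histone H2A proteins, and in each the lanes of a library lie close together and far from those of the other. Hist1h2ah was at 114 and 74.2 RPKM (-0.61), Hist1h2ag at 81.6 and 55.0 (-0.56) and Hist1h2ab at 70.6 and 43.7 (-0.68).

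Reads and model lengths both varied among these copies. Among the 8 copies with 1 exon and no overlapping row, models of 393 to 1041 bases held 1762 to 4523 implied reads over both undifferentiated lanes and 1017 to 2596 over both differentiated ones. All 32 lane values fell on whole reads, within 5% of a read. In lane order, Hist1h2af held 2254, 2269, 1310 and 1286 reads, Hist1h2ah 2221, 2234, 1287 and 1277, and Hist1h2an 2193, 2189, 1266 and 1247. The same reads can stand behind several of these rows, so they cannot be taken as separate genes, and a sum over them can count a read more than once. Over all members with 1 exon and no overlapping row, 98.4% of 188 values were whole, against 79.4% in other single-exon genes and 10.3% of 68 values in members with an overlapping row.

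**Figure D2:**
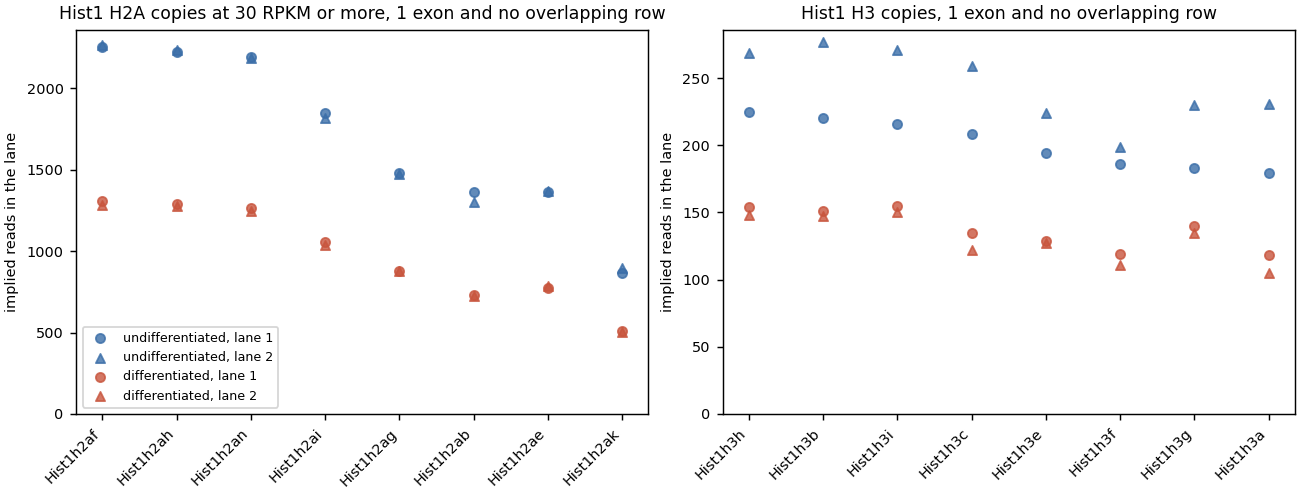
Implied reads per lane for 8 H2A copies (left) and 8 H3 copies (right) of the Hist1 cluster with 1 exon and no overlapping row; colours and symbols stand for library and lane. Every copy holds fewer reads in the differentiated library, and in the H3 copies lane 2 of the undifferentiated library lies above lane 1.

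A histone gene outside the clusters is among the other genes that share these windows. The H2A window shown above occurs in 27 reference genes not chosen by name. Gm20633 shares 551 windows with H2A symbols and Gm20632 shares 531, and neither symbol has a value here. H2afx, the H2A variant gene that is phosphorylated at DNA breaks and whose message is known in both a stem-loop and a polyadenylated form, holds windows found in all 18 H2A symbols. The 10 symbols at 30 RPKM or more share 74 to 110 windows with it, 104 of 364 in Hist1h2af. H2afx read 215 and 226 RPKM before and 89.1 and 91.9 after differentiation, without overlap, and was at least 2-fold lower (-1.28). H2afj, another variant outside the clusters, shares 36 windows and stood at 15.3 and 17.8 RPKM. The part of reads of H2afx or of the other sharing genes in the H2A rows was not tested. Hist1h2ac, which shares 110 of 2447 windows with H2afx, stood at 6.79 and 4.95 RPKM (-0.39), with both undifferentiated lanes the higher.

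Overlapping models stood at unlike levels. Hist1h2ao lies over Hist1h2ap in nearly the same place and stood at 1.02 and 0.851 RPKM, while the first Hist1h2ap row stood at 147 and 97.4. The second Hist1h2ap row, at 0.398 and 0.222 RPKM, overlaps a gene model named after a genomic clone, which stood at 219 and 146 RPKM and bears no histone name. Hist1h2ad read 32.1 and 28.5 RPKM before and 31.5 and 29.0 after, with lanes that overlap between the libraries. It shares 482 bases with Hist1h3d.

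H2A genes outside Hist1 lay on the other side. Hist3h2a (chromosome 11, 58768187 to 58770332) read 2.06 and 2.05 RPKM before and 6.33 and 6.46 after differentiation, a ratio of 1.28. Its lanes do not overlap between libraries, and its transcript has 97.2% of its windows to itself among the clustered genes. The row lies inside that of Trim17, which was at 2.49 and 3.05 RPKM, and can share reads with it. The first Hist2h2aa1 row (chromosome 3, 96043639 to 96044216) read 1.30 and 1.17 RPKM before and 4.89 and 4.39 after (1.34). Its second row (96049461 to 96050038) was listed at 0 in both undifferentiated lanes and at 1.49 and 0.835 after differentiation, so no fold is given and its call rests on the 1 RPKM added. Both rows overlap those of Hist2h2aa2, which stood at 2.03 and 1.65 and at 1.98 and 2.46 RPKM, with overlapping lanes. The second also overlaps a row of Hist2h3c1. How reads were divided among these overlapping rows was not tested, so neither call can be taken as a change of Hist2h2aa1 alone. Hist1h2aa, a testis variant at the edge of Hist1, was at 1.70 and 2.29 RPKM (0.28).

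**Figure D3:**
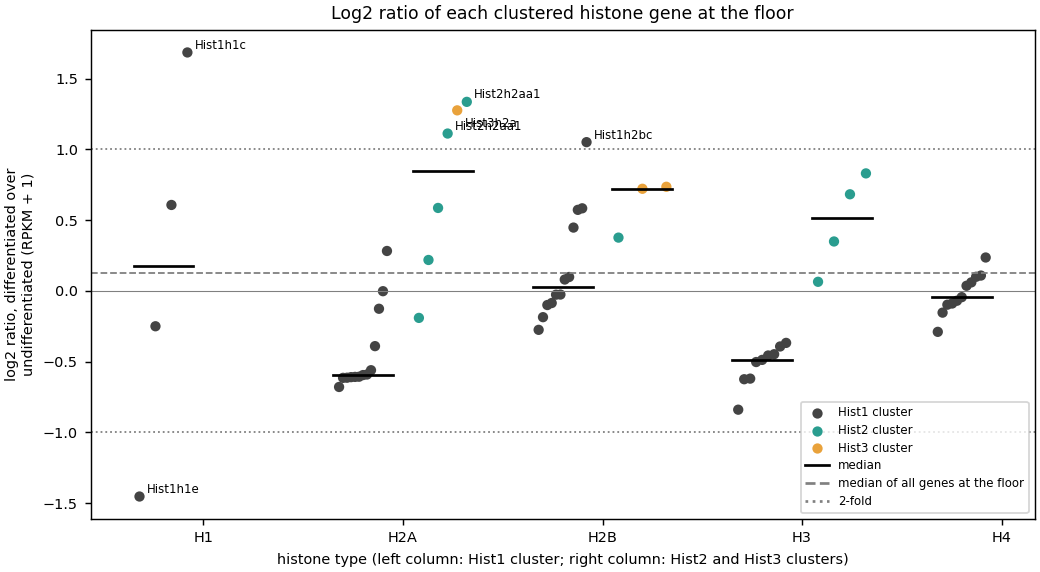
Log2 ratio, differentiated over undifferentiated, of each of the 62 rows at the floor, by histone type, with Hist1 rows in the left column of each type and Hist2 and Hist3 rows in the right; black bars are medians, the dashed line is the median of all genes (0.12) and dotted lines mark 2-fold. Hist1 H2A and H3 rows gather near -0.6 and -0.5, and the rows of the other clusters lie mostly above 0.

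Hist1 and the smaller clusters lay on different sides. Of 49 Hist1 rows at the floor 35 had a ratio below 0 (median -0.15), and with equal RPKM sums 25 did. Among the 49, 2 were higher (4.08%, where 19.1% of all genes were) and 1 lower (2.04%, where 8.46% were). The 35 include 12 H2A and 9 H3 rows, whose copies share reads and cannot be taken as separate genes. Of the 13 rows at the floor in Hist2 and Hist3, 12 had a ratio above 0 (median 0.68), with 3 higher (23.1%, where 19.1% of all genes were) and none lower, and 10 to 12 lay above 0 under the other scalings. H1 has no row outside Hist1 and H4 none at the floor, and the 12 Hist1 H2B rows at the floor lay 6 below and 6 above 0. Their levels were low, summing to 25.7 RPKM before and 44.9 after differentiation with the 3 rows below the floor, where Hist1 summed to 1233 and 885. Pairs of overlapping rows are among the 13, so they are not 13 separate genes. The 3 higher rows include both rows of Hist2h2aa1, which overlap other rows.

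H2B genes were split, with Hist1h2bc the one that passed 2-fold. Of 15 rows at the floor 9 had ratios above 0, where 10039 of all 18019 genes did. In 7 of the 15 both differentiated lanes lay above both undifferentiated lanes, where 47.4% of all genes did so. Hist1h2bc (23776068 to 23784357) read 10.8 and 9.70 RPKM before and 24.7 and 19.9 after differentiation, without overlap, a ratio of 1.05. Its row is spliced, spanning 8290 bases, and its reference transcript ends without a stem-loop. It stayed under 2-fold in lane 2 alone (0.97) and with centring (0.93), trimmed-mean (0.96) and upper-quartile scaling (0.71). Hist1h2bj, the next highest, stood at 8.24 and 8.90 RPKM (0.10). Hist1h2bl was at 4.97 and 5.32 RPKM (0.08), Hist1h2bk at 4.91 and 4.57 (-0.09) and Hist1h2bh at 3.69 and 5.39 (0.45). These encode core H2B proteins. The lanes of Hist1h2bl and Hist1h2bk overlap between the libraries, and the ratios of Hist1h2bj, Hist1h2bl and Hist1h2bk changed sign with the scaling. The lowest ratios were those of Hist1h2bb, at 2.34 and 1.76 RPKM (-0.28), and Hist1h2bm, at 2.57 and 2.14 (-0.19).

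Members known for other tissues or for polyadenylated messages were also present. Hist1h2ba, the testis H2B that in the mouse is also found in early embryos, read 5.17 and 4.98 RPKM before and 7.62 and 8.59 after differentiation (0.58), without overlap. The spermatogenic markers found in the table were near 0, Prm2 at 0 and 0.0642 RPKM and Acrv1 at 0.122 and 0.0852. Hist3h2ba, of the small Hist3 cluster, was at 2.55 and 4.91 RPKM (0.74), and its lanes do not overlap either. Hist2h2be stayed below the floor, at 0.149 and 0.492 RPKM, with all 4 lanes under 1.

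Neighbouring H2A and H2B genes often start from a common stretch of DNA, transcribed away from each other. The table holds 14 such pairs, with starts 168 to 306 bases apart, and 10 with both rows at the floor. In 8 of the 10 the H2B ratio was above the H2A ratio, with medians of 0.09 for H2B and -0.58 for H2A. Hist1h2ac and Hist1h2bc, 240 bases apart, had -0.39 and 1.05, and Hist1h2ae and Hist1h2bg, 176 bases apart, had -0.61 and 0.57. The exceptions were the pair of Hist1h2ad and Hist1h2bf, with -0.0020 and -0.03, and that of Hist3h2a and Hist3h2bb-ps, with 1.28 and 0.72. Pairs were looked at after the values were seen, and the H2A side carries the shared reads described above.

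**Figure D4:**
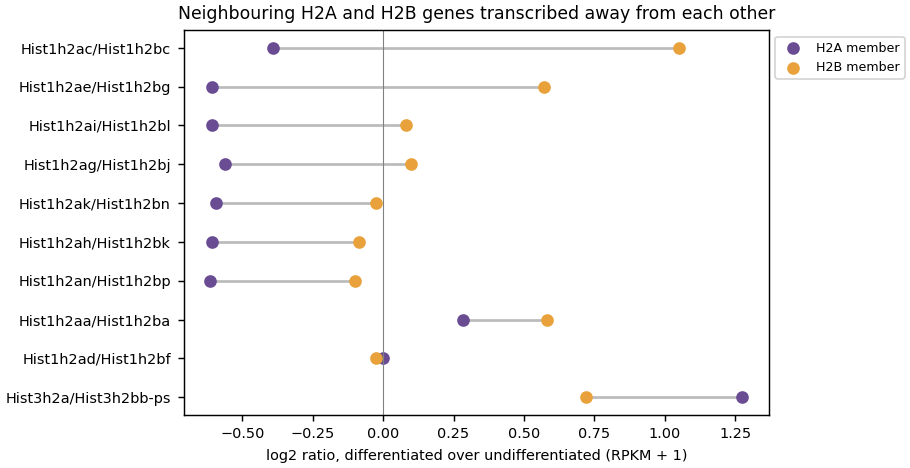
Log2 ratios of the H2A (purple) and H2B (orange) member of 10 neighbouring pairs with both rows at the floor, sorted by the difference. The H2B point lies to the right in 8 pairs, most widely for Hist1h2ac and Hist1h2bc.

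Promoters were read from RefSeq (GRCm38.p6, 250 bases before to 50 after the start), which matched 59 symbols. CCAAT, on either strand, stood in 84.7% of them against 37.9% of all 27025 promoter windows, in every H1, H2A, H2B and H3 promoter but in only 3 of 12 of H4. TATAAA stood in 57.6% against 14.2%. The octamer ATTTGCAT stood in 22.03% against 1.75%, in 7 of 16 H2A and 6 of 15 H2B promoters and in no other. AAACACA, known from H1 promoters, stood in 5 of 6 H1 promoters, in 15.3% of all members and in 7.14% of all windows. The 150 bases before the start are shown for the H1 genes with the opposite ratios and for the stretch between Hist1h2ae and Hist1h2bg, read towards Hist1h2bg, with these motifs in capitals where they occur on either strand.
Hist1h1c, chr13:23738657-23738806, plus strand: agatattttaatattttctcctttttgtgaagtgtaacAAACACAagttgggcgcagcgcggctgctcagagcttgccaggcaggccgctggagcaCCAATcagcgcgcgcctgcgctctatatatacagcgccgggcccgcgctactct
Hist1h1e, chr13:23622559-23622708, minus strand: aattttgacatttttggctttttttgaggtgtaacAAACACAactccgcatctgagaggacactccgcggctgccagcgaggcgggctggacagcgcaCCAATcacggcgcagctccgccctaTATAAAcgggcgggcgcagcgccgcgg
Hist1h2bg, chr13:23571250-23571399, plus strand: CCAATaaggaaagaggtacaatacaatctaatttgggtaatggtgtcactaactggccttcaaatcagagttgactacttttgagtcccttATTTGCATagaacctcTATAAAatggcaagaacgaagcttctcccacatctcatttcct
Hist1h1c, which was higher, and Hist1h1e, which was lower, both hold AAACACA and CCAAT, and only Hist1h1e holds TATAAA. The octamer and TATAAA of the Hist1h2bg promoter also lie in the window of its partner Hist1h2ae, whose ratio had the other sign.

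H3 genes of Hist1 were lower by less than 2-fold throughout. All 9 rows had ratios below 0 (median -0.49, and all 9 under each other scaling). In all 9 both undifferentiated lanes lay above both differentiated lanes, where 37.1% of all genes at the floor did so. The H3 transcripts share windows, with a median of 41.8% of their own, so the 9 rows cannot be taken as separate genes. Hist1h3d (23666340 to 23668880) was far above the others, at 98.3 and 108 RPKM before and 54.8 and 59.4 after (-0.84). Its single-exon model of 2541 bases overlaps Hist1h2ad, and from which of both genes the shared reads came was not tested. The other 12 H3 rows summed to 91.3 and 69.3 RPKM, a ratio of -0.39. Hist1h3h read 12.2 and 15.2 RPKM before and 9.54 and 9.47 after (-0.49), and Hist1h3i 11.8 and 15.5, then 9.71 and 9.70 (-0.46). Both encode replication-dependent H3, and their values nearly repeat each other lane by lane. Hist1h3c was at 12.4 and 7.75 RPKM (-0.62), Hist1h3b at 10.9 and 7.38 (-0.50), Hist1h3g at 10.5 and 7.91 (-0.37) and Hist1h3a at 10.4 and 6.41 (-0.62).

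The H3 copies also differed between lanes of 1 library. In the 8 copies other than Hist1h3d, lane 2 of the undifferentiated library was 1.12 to 1.35 times lane 1, and in the differentiated library 0.919 to 1.02 times. Among all genes between 2 and 20 RPKM, 4288 of 8315 were higher in lane 2 of the undifferentiated library, with a median fold of 1.11 between lanes in either direction. Ratios of the copies therefore moved with the lane, from -0.32 in lane 1 to -0.63 in lane 2 for Hist1h3h. No window of the H3 members occurs in H3f3a or H3f3b, the polyadenylated genes of the variant H3.3, which stood at 327 and 313 RPKM (-0.07) and at 568 and 536 (-0.08).

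Outside Hist1 the H3 rows were on the upper side. The second Hist2h3c1 row was at 1.29 and 2.67 RPKM (0.68), without overlap of the lanes, and the pseudogene row Hist2h3c2-ps at 0.141 and 1.03 (0.83). The first Hist2h3c1 row, which overlaps that pseudogene, was at 4.14 and 4.38 RPKM (0.06). The second Hist2h3c1 row overlaps the second rows of the H2A genes Hist2h2aa1 and Hist2h2aa2. How reads were divided among those rows was not tested.

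H4 genes stood closest together and did not separate the libraries. The 11 rows at the floor ranged from 4.84 to 8.94 RPKM before and 4.93 to 8.47 after differentiation, with ratios from -0.29 to 0.24 (median -0.04). Their direction followed the scaling: 11 of 11 were below 0 with upper-quartile scaling and 10 above it with equal RPKM sums. Hist1h4n stands on 2 rows with the same 102 implied reads in lane 1 before differentiation and the same 86 in both lanes after it, at 8.94 and 8.47 RPKM (-0.07) and at 8.76 and 8.47 (-0.04). Whether a read was counted on both rows or divided between them was not tested. Hist1h4k was at 7.80 and 8.43 RPKM (0.10), Hist1h4i at 5.52 and 6.68 (0.24), Hist1h4d at 6.24 and 4.93 (-0.29), Hist1h4h at 6.05 and 5.34 (-0.15) and Hist1h4b at 5.05 and 5.52 (0.11). These encode the core histone H4, and apart from Hist1h4i, Hist1h4n and Hist1h4d their lanes overlap between the libraries. The symbol Hist4h4 stands on a row of chromosome 13 at 5.99 and 5.58 RPKM and on one of chromosome 6 at 0.698 and 0.693, the latter being the Hist4 cluster. Hist1h4f, a further Hist1 copy, was at 6.04 and 5.58 RPKM (-0.10).

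The 12 rows below the floor are Hist1h1b, Hist1h1t, the second Hist1h2ap, Hist1h2al, both rows of Hist1h2bq, Hist1h2be, Hist2h2be, Hist1h4j, Hist1h4m, Hist2h4 and the chromosome 6 row of Hist4h4. They summed to 3.97 RPKM before and 3.25 after differentiation. Hist1h2be, at 0.994 and 0.0043 RPKM, lay just under the floor of 1 RPKM, and Hist1h2ao (1.02 and 0.851) and Hist2h3c2-ps just over it.

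Genes that make, process and package histones were set beside the members. For transcription and 3' end processing of histone messages, 28 genes were at the floor, with 2 higher (7.14%, where 19.1% of all genes were) and 1 lower (3.57%, where 8.46% were), a median ratio of -0.04, and 0 to 2 higher and 1 to 4 lower under other settings. Slbp, which encodes the stem-loop binding protein and was named after its value was seen, stood at 77.9 and 48.2 RPKM (-0.68). The 2 higher genes were Lsm11, of the U7 particle that cuts the messages, at 3.77 and 8.55 RPKM (1.00), and Zcchc11, a terminal uridylyltransferase, at 13.6 and 35.1 (1.30). The lower one was Pou2f1, the octamer-binding factor Oct1, at 13.8 and 4.70 RPKM (-1.37). Of 23 histone chaperone genes 1 was higher (4.35% against 19.1% of all genes) and 3 were lower (13.04% against 8.46%), with a median of -0.40 and 0 to 4 lower under other settings. The higher was Rbbp7, at 163 and 494 RPKM (1.60), and the lower included Npm1, nucleophosmin, at 1747 and 784 (-1.16), and Mcm2, which is also a replication helicase subunit, at 179 and 83.5 (-1.09).

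Of the variant histone genes outside the clusters 11 were at the floor, with 2 higher (18.2%) and 1 lower (9.09%), close to the shares of all genes (19.1% and 8.46%), and a median of -0.07. Besides H1f0 and H2afx, H2afy2, which encodes macroH2A2, was at 3.06 and 16.4 RPKM (2.10). Genes of S phase were mostly lower. Among 24 at the floor, 8 passed 2-fold downwards, 33.3% where 8.46% of all genes did, and none upwards (median -0.63, where the median of all genes was 0.12), and the count was 12 with upper-quartile scaling, where 16.9% of all genes passed, and 5 with equal RPKM sums, where 5.89% did. The summed level was 1945 RPKM before and 1011 after differentiation. Slc29a1, a nucleoside transporter, stood at 94.0 and 22.1 RPKM (-2.04), Mcm7 at 181 and 58.6 (-1.61) and Mcm5 at 192 and 72.5 (-1.39). The S phase list thus lay on the same side as the Hist1 H2A and H3 copies, and its part in their values was not tested.

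**Figure D5:**
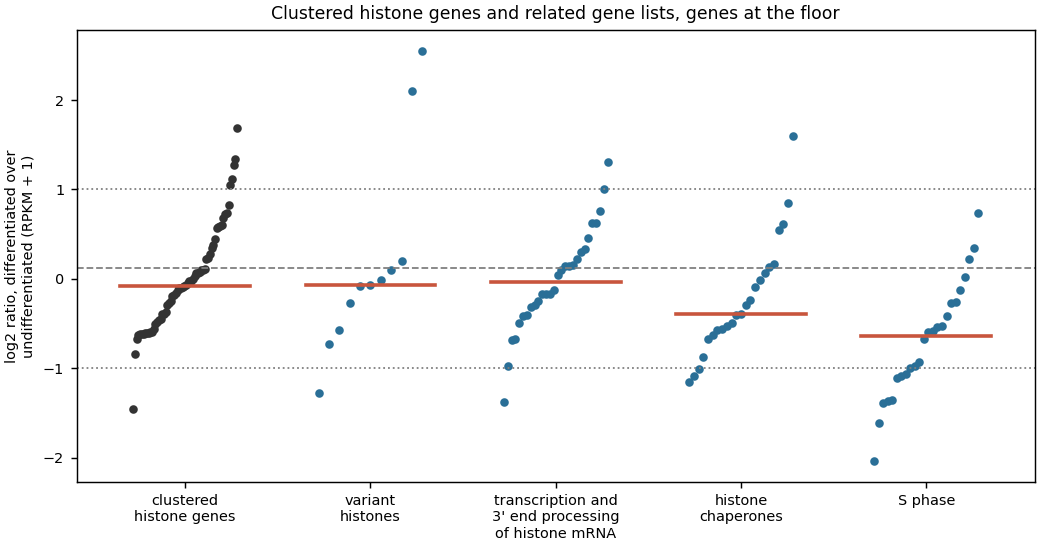
Log2 ratio of each gene at the floor among the 62 clustered histone rows and 4 related lists, sorted within each; red bars are medians, the dashed line is the median of all genes (0.12) and dotted lines mark 2-fold. The medians are -0.08, -0.07, -0.04, -0.40 and -0.63 from left to right.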

How the data were processed

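The authors deposited a gene table with values of 2 lanes and their mean for each of 2 libraries, with coordinates in mm9, the build the submitters' processing notes name. The unit is not named; the deposited values were read as RPKM because value times model length fell on whole multiples of a lane constant in 79.4% of values of other single-exon genes. The aligner, counting program, annotation and treatment of reads with several matches: not given in the sources used here. All value columns were matched to a sample. Members and lists were chosen with earlier results of these data known. Named were, per type, the 6 highest members and the 2 with the highest and lowest ratios, 9 members always, and the 3 largest ratios of each list; other names follow from counts, pairs or repeated symbols, or were chosen after their values were seen. Models spanning over 100 kb were not counted as overlapping. Ratios used a pseudocount of 1 RPKM, a floor of 1 RPKM and 2-fold as threshold. No count test was run, since the values are RPKM of 1 library per group. Scripts (Python 3.11.15, numpy 2.4.6, pandas 2.3.3) were tested on simulated data. Transcripts were GENCODE M21 (GRCm38) and promoters RefSeq GRCm38.p6, 21 transcripts being matched by identifier and the others by symbol. Their coordinates are not comparable with the mm9 ones. Alternatives were another pseudocount, floor, scaling, single lanes, and sets of rows.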

Additional observations from a re-analysis of the deposited data

How the results depend on the processing

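No paired analysis was possible because each group holds 1 library. Centring, trimmed-mean, upper-quartile and equal-sum scaling shifted the median ratio of all genes, 0.12 as deposited, by -0.12, -0.08, -0.33 and 0.22, and smaller ratios have no settled direction. The shares of all genes higher and lower, 19.1% and 8.46%, became 13.2% and 16.9% with upper-quartile scaling and 24.4% and 5.89% with equal sums. The count of clustered histone rows at least 2-fold higher, 5, was 3 after centring, 2 with upper-quartile scaling, 3 at a floor of 5 RPKM, 3 in lane 2 and 8 with a pseudocount of 0.1 RPKM. The count of lower rows, 1, was 3 with upper-quartile scaling and 2 in lane 1. After centring, the ratios of the summed RPKM were -0.68 for H2A, 0.32 for H2B, -0.74 for H3 and -0.56 for all types, and the median of single rows was -0.20. Trimmed-mean scaling gave -0.64 for H2A, 0.36 for H2B and -0.53 for all types. Upper-quartile scaling gave 0.26 for H1, -0.92 for H2A, 0.090 for H2B, -0.99 for H3, -0.38 for H4, -0.80 for all types and a median of -0.38. Equal sums gave 0.87 for H1, -0.31 for H2A, 0.69 for H2B, -0.37 for H3, 0.22 for H4, -0.19 for all types and a median of 0.13. A floor of 5 RPKM gave -0.58 for H2A, 0.63 for H2B, -0.48 for all types and a median of -0.29. Alternatives chosen after seeing the data were 1 row per symbol, a set of the 26 rows at the floor with at least 50% of windows of their own, and leaving out Hist1h3d or Hist1h1c. That set held 3 higher rows, with -0.35 for H2A, 0.71 for H2B, -0.75 for H3, -0.18 for all types and a median of 0.15. Without Hist1h3d the ratio was -0.39 for H3 and -0.40 for all types, and without Hist1h1c it was -1.03 for H1 and -0.46 for all types. Keeping 1 row per symbol, dropping the floor, or asking that lanes lie within 2-fold left 4 or 5 rows higher and 1 lower and moved none of these ratios beyond the spread between lanes. Where recomputed, the ratios of Hist1h1c, Hist1h1e, Hist1h2bc, Hist3h2a and the first Hist2h2aa1 row kept their sign. The second Hist2h2aa1 row was not followed. The cause of these shifts was not tested.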
